A study of Mus musculus with 4 samples.

Results

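The genes described here are 10 that encode parts of the uptake machinery of the kidney proximal tubule (Lrp2, Cubn, Amn, Dab2, Clcn5, Ocrl, Ctsl, Lgmn, Fcgrt and Lrpap1). They were taken by symbol from the 32285 genes of the count tables, and each symbol matched 1 gene. Single-cell RNA-Seq of whole kidneys from male C3H mice was available as 4 libraries, 1 per group, and the number of mice behind each library was not stated in the sources used here. WT-ND and WT-HFD were wild-type mice on a normal diet (ND) or a high-fat diet (HFD). SP-ND and SP-HFD were the SGLT2 mutant (Sweet Pee, SP), which is homozygous for a missense mutation in Slc5a2, on the same diets. Feeding began at 10 weeks of age and lasted 8 weeks, and kidneys were taken at 18 weeks of age. In the HFD, 60% of the calories came from fat. The comparisons ask how diet and the loss of glucose uptake through SGLT2 related to these genes in proximal tubule cells (PTC), and where in the kidney each gene was found.

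The proximal tubule takes back nearly all protein that passes the glomerular filter. Megalin (Lrp2) and cubilin (Cubn) are the receptors that bind filtered proteins at the brush border. Cubilin has no membrane anchor of its own and reaches the surface with amnionless (Amn). The receptor-associated protein (Lrpap1) is a chaperone that keeps megalin free of ligand in the endoplasmic reticulum. Dab2 is the adaptor that links megalin to the clathrin coat. Clcn5 is a chloride-proton exchanger of endosomes, and Ocrl is a phosphoinositide phosphatase of the same pathway. Mutations in the human forms of these 2 genes cause Dent disease and Lowe syndrome, in which small proteins are lost in the urine. Cathepsin L (Ctsl) and legumain (Lgmn) digest the cargo in lysosomes, while the neonatal Fc receptor (Fcgrt) returns albumin and IgG from the endosome.

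The upstream sequences of Lrp2, Cubn and Amn are shown because Lrp2 and Cubn were lower on HFD in both genotypes while Amn, whose product is cubilin's partner, was lower in WT by less and higher in SP. All 10 members matched an entry of the RefSeq promoter table (GRCm38.p6), and the 250 bases before each annotated start are given 5′ to 3′ on the gene's strand. Lrp2 lies on the minus strand (chr2:69586030-69586279), Cubn on the minus strand (chr2:13491877-13492126) and Amn on the plus strand (chr12:111270846-111271095). The genes themselves span chr2:69424335-69586029, chr2:13276338-13491876 and chr12:111271096-111276426 in the GENCODE annotation of the same build. Capitals mark a match to any of 5 motifs searched on both strands: the E-box core CACGTG, the HNF1 half-site GTTAAT, the HNF4 element CAAAGTCCA, the direct repeat read by PPAR receptors (2 copies of AGGTCA with 1 base between), and the TATA box TATAAA.
Lrp2: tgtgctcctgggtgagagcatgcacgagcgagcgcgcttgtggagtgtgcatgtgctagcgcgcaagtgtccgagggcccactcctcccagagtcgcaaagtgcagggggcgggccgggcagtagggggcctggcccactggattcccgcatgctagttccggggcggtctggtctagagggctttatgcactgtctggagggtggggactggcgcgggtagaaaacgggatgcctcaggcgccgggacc
Cubn: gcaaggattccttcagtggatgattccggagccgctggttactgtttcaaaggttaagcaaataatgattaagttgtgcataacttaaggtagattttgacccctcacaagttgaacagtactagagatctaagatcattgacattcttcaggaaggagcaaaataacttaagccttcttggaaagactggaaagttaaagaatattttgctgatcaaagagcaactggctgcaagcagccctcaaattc
Amn: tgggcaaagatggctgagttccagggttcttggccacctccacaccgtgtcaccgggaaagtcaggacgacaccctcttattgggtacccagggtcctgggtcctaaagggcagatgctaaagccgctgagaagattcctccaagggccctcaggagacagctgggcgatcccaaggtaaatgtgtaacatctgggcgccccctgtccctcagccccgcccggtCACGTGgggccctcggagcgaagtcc
The 3 sequences differed in base composition, with 66.4% G or C in Lrp2, 39.6% in Cubn and 61.2% in Amn against a median of 52.4% over 32851 promoters. None of the 5 motifs had a match in the window of Lrp2 or Cubn. Amn held the E-box core, starting at position -26 from the gene's start. Lgmn held it at -49 and Ctsl at -236, and 6.02% of all promoters held it. The HNF1 half-site was present in Dab2 (6.43% of all promoters). The letters TATAAA (12.4% of all promoters) were present at -172 in Clcn5 and at -37 in Lgmn. Dab2, Clcn5 and Lgmn each have 2 entries in the promoter table, and both were searched. Positions are counted from the start of the entry with the match, and which entry that was is not given here. The HNF4 element (0.384%) and the PPAR repeat (0.0335%) had no match in any member.

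Barcodes that had 200 to 5000 genes and less than 50% mitochondrial UMIs (unique molecular identifiers, each standing for 1 captured RNA molecule) numbered 6754 to 10869 per library, 34789 in all. Classes were set by the UMIs of marker genes of 15 classes, 1676 to 3747 barcodes per library met none, and no member was a marker of any class. The proximal tubule-like class (here PTC) held 2389 barcodes on ND and 1552 on HFD in WT, and 1085 and 614 in SP. All 12 of its markers were detected in 3 libraries and 11 in SP-HFD, where Dpys had 0 UMIs. Dpys had at most 0.400 CPM (counts per 1000000 UMIs of the class and library) in any library, and the sodium-phosphate transporter Slc34a1 had 2211 to 3000 CPM. The median PTC barcode held 9298 UMIs on ND and 9510 on HFD in WT, and 14616 and 13653 in SP. Slc5a2, the mutated gene, had 319 CPM on ND and 245 on HFD in WT, and 57.8 and 98.9 in SP. It was therefore lower in both libraries labelled SP. The marker lists of the 14 other classes summed to 484, 1429, 498 and 585 CPM in PTC in the same library order. The WT-HFD class thus held the most RNA of these marker genes. The paper describes injured proximal tubule cells, mainly in WT-HFD, that also express the thick limb markers Slc12a1 and Umod. Whether such cells held part of this RNA was not tested. Thick limb markers gave 216, 577, 228 and 288 CPM of these sums, and the median mitochondrial share of PTC was 31.2%, 27.5%, 36.5% and 32.4%. Results in PTC limited by either are given below. Any 2 libraries shared 54 to 77 barcode sequences, at most 3 of them PTC in both. With 1 library per group no test of diet or genotype was made. The 95% intervals given are exact and cover counting error only, and they hold none of the variation between mice.

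Lrp2 and Cubn, the receptors, were lower in PTC on HFD than on ND in both genotypes. Lrp2 had 1386 CPM on ND and 835 on HFD in WT, and 1284 and 927 in SP. The HFD libraries lay below both ND libraries. On the log2 scale the HFD level minus the ND level was -0.73 (-0.76 to -0.70) for WT and, for SP, -0.47 (-0.51 to -0.43). Cubn had 149 CPM on ND and 87.4 on HFD in WT, and 146 and 93.1 in SP. The order of the libraries was that of Lrp2, at a lower pooled CPM. The Cubn difference on that scale was -0.77 (-0.86 to -0.69) for WT and -0.65 (-0.77 to -0.53) for SP. Whether the ratio differed between genotypes was not tested.

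**Figure D1:**
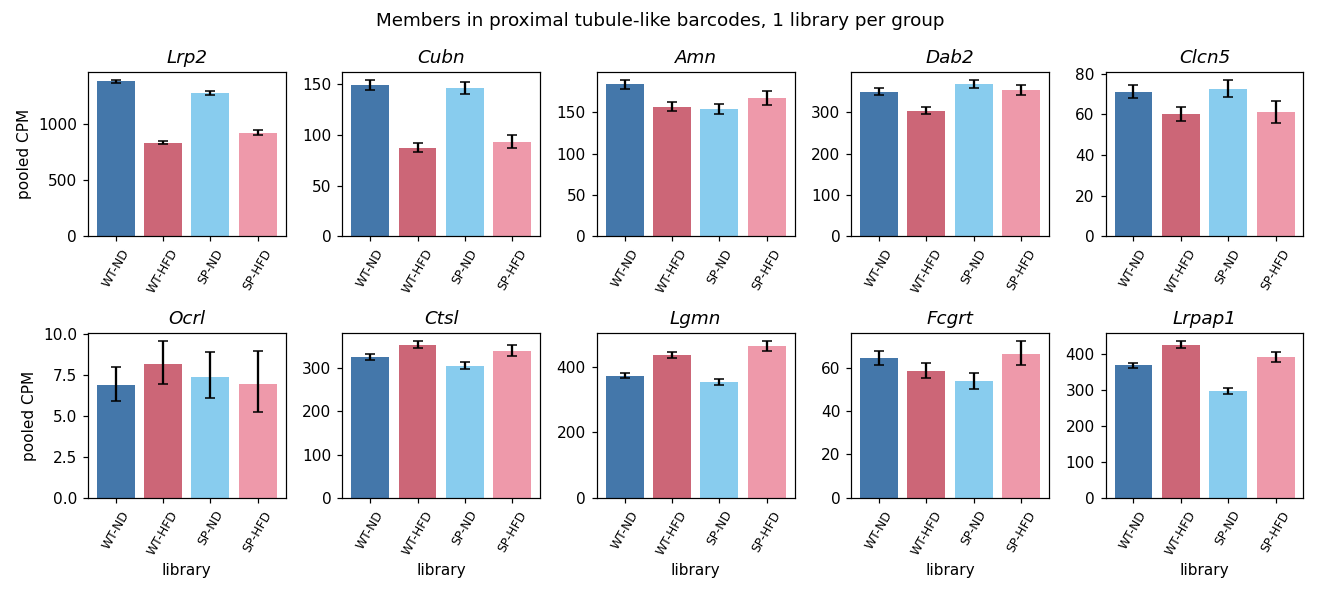
Pooled CPM of the 10 members in PTC (vertical axis, from 0, a scale of its own for each gene) by library (horizontal axis), with 1 library per group. Error lines are exact 95% Poisson intervals for counting error. Lrp2 and Cubn are lower in both HFD libraries than in both ND libraries, and Lgmn is higher.

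In WT, 2 of the 9 members that passed the level filter (a mean of at least 20 CPM over the pair of libraries) were lower by more than 1.5-fold on HFD, and none was higher. Over all 4406 genes measured in the same barcodes, 4.24% were lower and 5.38% higher by that much. In SP, 1 of 9 members, Cubn, was lower by more than 1.5-fold and none higher, against 5.61% lower and 6.52% higher of 4478 genes. Lrp2 in SP fell short of that fold. The ratio of Lrp2 in WT was below that of all but 2.27% of genes, and the ratio of Cubn below all but 1.88%. In SP these shares were 8.62% for Lrp2 and 4.49% for Cubn. The median log2 ratio over the members was -0.17 in WT and 0.03 in SP, beside 0.00 over all genes in both. Of 4289 genes measured in both genotypes, 105 (2.45%) were lower by more than 1.5-fold in both, and Cubn was the only member among them.

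The lower level was spread over the barcodes of the class. Per 10000 UMIs, in PTC of at least 1000 UMIs, the median barcode held 13.3 Lrp2 UMIs on ND (quartiles 8.92 and 18.0) and 7.08 on HFD (4.31 and 10.5) in WT, and 11.95 (8.45 and 16.3) and 8.70 (5.65 and 11.5) in SP. The upper quartile in WT-HFD lay below the median in WT-ND. Lrp2 was detected in 91.4% to 96.3% of PTC before depth was made equal. At an equal depth of 1000 UMIs, for which 11 to 55 shallower barcodes per library were left out, the share was 71.1% on ND and 51.3% on HFD in WT, and 67.8% and 56.1% in SP. For Cubn these shares were 14.1%, 8.36%, 13.5% and 9.48%. In T or NK cells, which should lack Lrp2, the share at the same depth was 25.8% on ND and 5.57% on HFD in WT, and 10.7% and 5.27% in SP, where the median barcode held 1882 to 3295 UMIs. The shares of Cubn in T or NK cells were 3.39%, 1.16%, 1.43% and 1.06%. Both receptors in PTC were above this background in every library.

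With PTC limited to barcodes that held under 0.05% thick limb marker UMIs, the log2 ratio in WT was -0.59 for Lrp2 and -0.70 for Cubn. With PTC of 5000 to 20000 UMIs it was -0.89 for each. With PTC of 20 to 40% mitochondrial UMIs it was -0.77 for Lrp2 and -0.74 for Cubn. In SP the same limits gave -0.49 to -0.47 for Lrp2 and -0.63 to -0.59 for Cubn. These limits were chosen after the data were seen.

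Amn, the membrane partner of cubilin, did not share the pattern of Cubn. It had 184 CPM on ND and 157 on HFD in WT, and 154 and 167 in SP. WT-ND was the highest and the other 3 libraries lay close together. On the log2 scale the HFD level minus the ND level was -0.23 (-0.30 to -0.16) for WT and 0.12 (0.02 to 0.22) for SP. In SP barcodes between the early and late segments it had 150 CPM on ND and 122 on HFD, the opposite order. Leaving mitochondrial UMIs out of the total moved every ratio of HFD to ND in SP by -0.0945. That shift is larger than the lower limit of 0.02 for Amn, so the shifted interval holds 0. Lrpap1, the megalin chaperone, had 369 CPM on ND and 427 on HFD in WT, and 298 and 392 in SP. It was higher on HFD in each genotype, opposite to Lrp2, with log2 ratios of 0.21 (0.17 to 0.25) in WT and 0.39 (0.33 to 0.46) in SP.

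Dab2, the adaptor, had 350 CPM on ND and 304 on HFD in WT, and 369 and 354 in SP. WT-HFD was the lowest, with a log2 ratio to WT-ND of -0.20 (-0.25 to -0.16). In SP the pooled ratio was -0.06 with an interval that held 0 (-0.13 to 0.00). This pooled value covered segments that differed. Dab2 in SP had 371 CPM (358 to 385) on ND and 390 (374 to 407) on HFD in early PTC, with intervals that overlapped. It was lower on HFD in the PTC between, at 375 and 320 CPM, and in late PTC, at 358 and 262. Clcn5, the endosomal exchanger, had 71.2 CPM on ND and 60.2 on HFD in WT, and 72.6 and 61.1 in SP. It was lower on HFD by a like amount in each genotype, -0.24 (-0.35 to -0.14) in WT and -0.25 (-0.40 to -0.10) in SP. Ocrl had 6.88 CPM on ND and 8.18 on HFD in WT, and 7.40 and 6.92 in SP, from 58 to 169 UMIs per library. It was the member that failed the level filter, and no difference in it was detectable at this depth.

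In pooled PTC the lysosomal proteases were higher on HFD. Lgmn had 373 CPM on ND and 436 on HFD in WT, and 352 and 462 in SP, with log2 ratios of 0.23 (0.18 to 0.27) in WT and 0.39 (0.33 to 0.45) in SP. Ctsl had 325, 354, 306 and 340 CPM in the same order, with ratios of 0.12 (0.08 to 0.17) and 0.15 (0.08 to 0.22). Neither gene passed 1.5-fold, and in late PTC alone Lgmn was at -0.03 in WT and Ctsl at 0.00 in SP. In early PTC of WT, Ctsl had 368 CPM on ND and 376 on HFD. In SP barcodes between these segments Ctsl had 305 CPM on ND and 287 on HFD, a log2 ratio of -0.09 (-0.27 to 0.09). Fcgrt, which recycles albumin and IgG, had 64.3 CPM on ND and 58.7 on HFD in WT, and 53.8 and 66.5 in SP. Its log2 ratio was -0.13 (-0.24 to -0.02) for WT and 0.30 (0.15 to 0.46) for SP, and the difference between these was not tested.

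**Figure D2:**
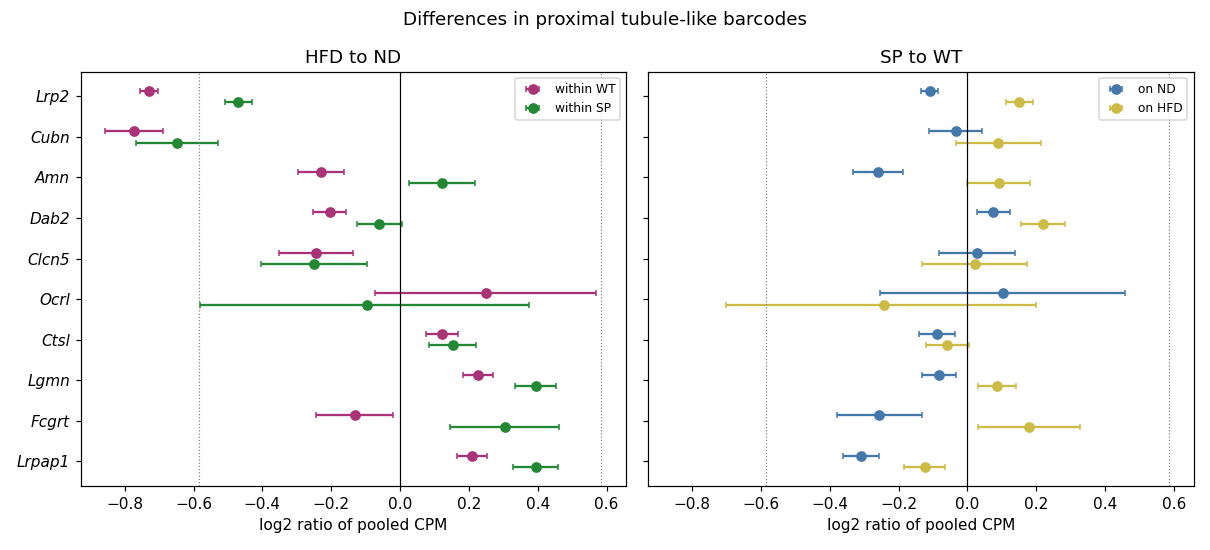
Log2 ratio of pooled CPM in PTC (horizontal axis) for each member, for HFD to ND within each genotype (left panel) and for SP to WT on each diet (right panel). Points are ratios, lines are exact 95% counting intervals and dotted lines mark 1.5-fold; Lrp2 and Cubn lie furthest to the left on HFD, and no member reaches 1.5-fold between genotypes.

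Between genotypes the members were closer, as were all genes. Between diets, 9.62% of all genes in WT and 12.1% in SP were past 1.5-fold in either direction. On ND, 0 of 9 members differed by more than 1.5-fold between SP and WT, against 3.47% of 4436 genes, and on HFD 0 of 9, against 2.27% of 4414 genes. With no replicates there was no test behind these counts, and at such shares 0 of 9 is not particular to the members. On ND, Lrpap1 had the largest difference among the 9, with a log2 ratio of SP to WT of -0.31 (-0.36 to -0.26). Amn and Fcgrt followed at -0.26 each. Lrp2 was at -0.11 (-0.14 to -0.08) and Cubn at -0.03 (-0.11 to 0.04). When mitochondrial UMIs were left out of the total, all ratios of SP to WT on ND moved up by 0.11, which turned those of Ctsl and Lgmn from -0.09 and -0.08 to 0.02 and 0.02. On HFD, Dab2 had the largest ratio of SP to WT, at 0.22 (0.15 to 0.28). Lrp2 was at 0.15 (0.11 to 0.19), Fcgrt at 0.18 (0.03 to 0.33) and Lrpap1 at -0.12 (-0.18 to -0.07). The Lrp2 value depended on the barcodes used and ran from 0.00786 to 0.33 over the 18 alternatives. For early PTC on HFD, Lrp2 was at 900 CPM (882 to 917) for WT and 922 (897 to 948) for SP, with overlapping intervals. It was higher for SP in the PTC between, at 839 against 706 CPM, and in late PTC, at 1004 against 799. The ratios of HFD to ND and of SP to WT share libraries and are not independent of each other.

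Along the tubule, PTC were divided by the UMIs of 5 early markers and 5 late markers. This gave early barcodes (376 to 1093 per library), late barcodes (106 to 661) and those between (132 to 635). Early barcodes held 10242979 of 24550274 PTC UMIs in WT-ND and 10924617 of 19431958 in WT-HFD. In SP they held 7646481 of 14994880 on ND and 5478238 of 8381427 on HFD. How far this mix of segments entered the pooled ratios was not tested. Lgmn was higher early than late in all 4 libraries, with log2 ratios of 0.54 on ND and 0.74 on HFD in WT, and 0.40 and 0.68 in SP. Ctsl (0.35 to 0.55) and Amn (0.23 to 0.46) were also higher early in every library, with intervals above 0. Lrpap1 ran the other way, at -0.22, -0.19, -0.07 and -0.43, and its interval in SP-ND held 0. The median ratio of early to late over all genes was 0.00 to 0.04.

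Lrp2 in early barcodes had 1480 CPM on ND and 900 on HFD in WT, and 1338 and 922 in SP. In late barcodes it had 1274, 799, 1198 and 1004 CPM. In WT the 2 segments had like ratios of HFD to ND, -0.72 early and -0.67 late. In SP the ratio was -0.54 (-0.59 to -0.49) early and -0.25 (-0.34 to -0.17) late. Whether the ratio differed between segments was not tested. Cubn in SP went from 152 to 86.9 CPM early and from 145 to 116 CPM late, ratios of -0.80 (-0.96 to -0.65) and -0.33 (-0.57 to -0.09). SP-HFD was the one library in which both receptors were higher late than early. The late class of SP-HFD was the smallest, with 106 barcodes. Lrpap1 in late barcodes had 400 CPM on ND and 464 on HFD in WT, and 308 and 485 in SP, and its ratio of HFD to ND in SP, 0.66 (0.52 to 0.79), was the highest of any member in either segment. In that comparison 9.18% of 4370 genes were higher by more than 1.5-fold.

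**Figure D3:**
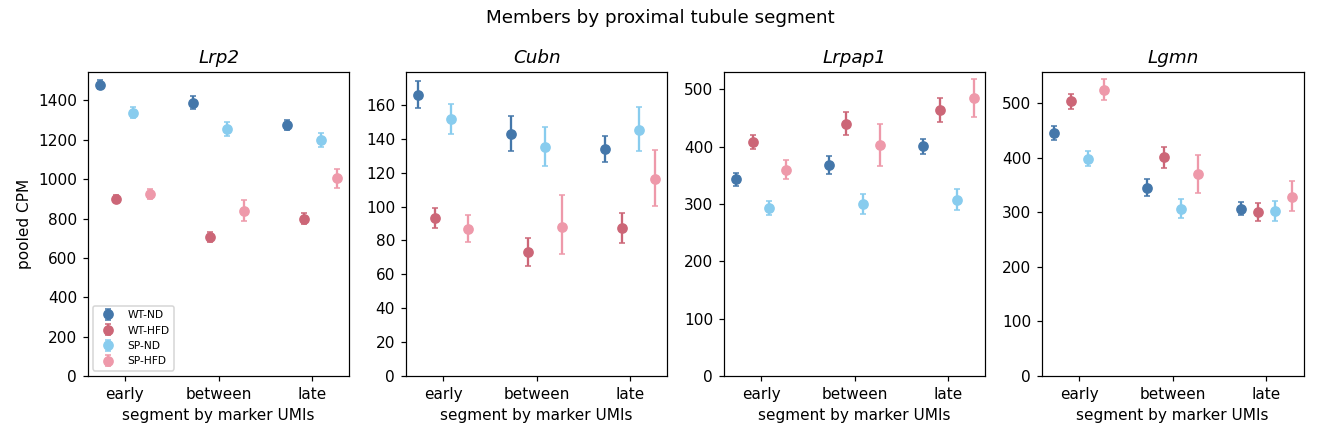
Pooled CPM (vertical axis, from 0) of Lrp2, Cubn, Lrpap1 and Lgmn in early, between and late PTC (horizontal axis), coloured by library, with exact 95% Poisson intervals. Lrp2 and Cubn are lower in HFD than in ND libraries in each segment, with the smallest gap in late PTC of SP, and Lgmn is highest in early PTC.

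Across the kidney the members fell into different patterns. Lrp2, Cubn and Amn were highest in PTC in every library, with log2 ratios of PTC to all other classed barcodes of 3.33, 3.26 and 3.59 in WT-ND. Lrp2 had 138 CPM outside PTC on ND and 77.7 on HFD in WT, and 63.6 and 32.1 in SP. In the other 13 classes compared, the level of Lrp2 was at 1.30% to 31.4% of its PTC level, and the proximal tubule markers themselves were at 1.94% to 37.0% of theirs in the same classes. The median over classes was 11.7% for Lrp2 beside 9.03% for the markers in WT-ND, and 3.70% beside 3.46% in SP-HFD. On the log2 scale the share of Lrp2 minus that of the markers ran from -1.03 to 1.09 over classes and libraries. It was above 0 in every library in podocytes (0.23 to 0.67), T or NK cells (0.31 to 0.75) and principal cells (0.18 to 0.58). The same held for distal tubule (0.27 to 0.47), endothelial cells (0.19 to 0.27) and thick limb (0.07 to 0.23). In macrophages (-0.62 to -0.05) and neutrophils (-0.67 to -0.12) it was below 0 in every library. Cubn in podocytes was at 0.38 to 1.21. The part of free RNA in these values was not tested. The order of the classes below PTC could not be told apart for these 3 genes, because the ranges over libraries of neighbouring classes overlapped.

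**Figure D4:**
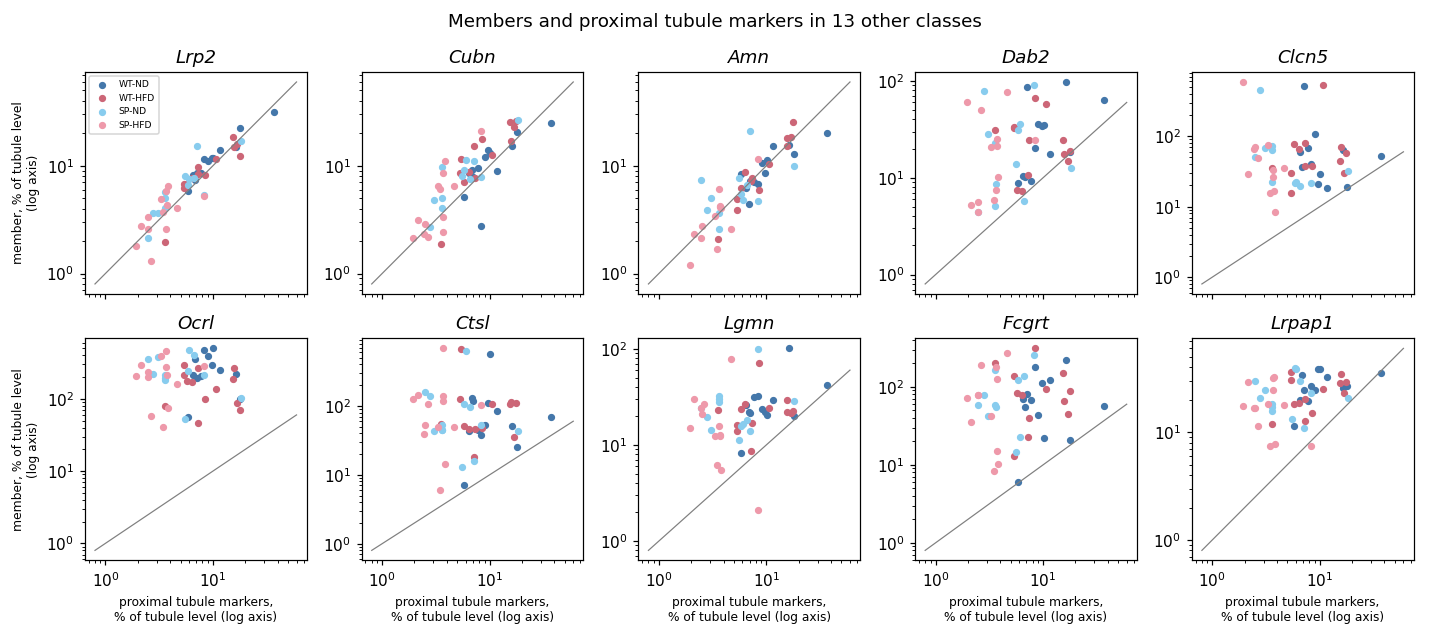
Each point is 1 of 13 other classes in 1 library, with the summed proximal tubule markers (horizontal axis) and the member (vertical axis) as a percent of their PTC level, both on log axes; classes with 0 UMIs of the member are not drawn. The grey line marks equal percents; the points of Lrp2, Cubn and Amn lie on both sides of it (log2 of member to marker percent of -1.59 to 1.57), and the other 7 members lie mostly above it.

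Most of the remaining members had a high level in another class. Over all other classes together, the log2 ratio of PTC to the rest in WT-ND was -0.16 for Clcn5 and -0.15 for Ctsl. For Clcn5 the sign was not shared by every library. Its ratio was 0.20 (0.09 to 0.30) in SP-ND, against -0.29 to -0.16 in the others. For Ctsl the ratio was below 0 in every library, at -0.25 to -0.12. Averaged over libraries the ratios of Clcn5 and Ctsl became 0.52 and 0.46 with median-ratio scaling, which moved every gene up by 0.64. Ctsl was highest in podocytes, the filter cells of the glomerulus, with 1838 CPM on ND and 2346 on HFD in WT, and 1907 and 2331 in SP. Its podocyte level was higher in the HFD library of each genotype, with log2 ratios of 0.35 (0.30 to 0.41) in WT and 0.29 (0.23 to 0.35) in SP. Clcn5 was highest in intercalated cells, the acid-base cells of the collecting duct, with 367 CPM on ND and 317 on HFD in WT, and 331 and 359 in SP. These lay above all 4 PTC values. Ocrl was highest in podocytes among the 14 classes compared, which leave out the 2 to 33 erythroid barcodes of each library. Its podocyte range of 24.4 to 35.1 CPM overlapped that of principal cells (21.8 to 27.8). Within each library podocytes were the higher of these classes. They had 500%, 298%, 474% and 465% of the PTC level, and principal cells 398%, 267%, 376% and 390% (WT-ND, WT-HFD, SP-ND, SP-HFD).

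Dab2 had 3 classes with a high level. Beside PTC it had 342 CPM on ND and 205 on HFD in WT, and 331 and 272 in SP in macrophages. In intercalated cells it had 305, 178, 290 and 215 CPM, lower on HFD in both genotypes, with log2 ratios of -0.78 (-0.92 to -0.64) in WT and -0.43 (-0.57 to -0.29) in SP. In intercalated cells of WT, 4.15% of 5524 genes were lower by more than 1.5-fold on HFD. The other 2 members high in macrophages were Lgmn, with 376, 311, 353 and 361 CPM, and Fcgrt, with 141, 183, 139 and 181 CPM. Macrophage values rest on 74 to 422 UMIs each for these 3 genes. Lrpap1 was highest in PTC, and its next class, podocytes, had 116 to 154 CPM.

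**Figure D5:**
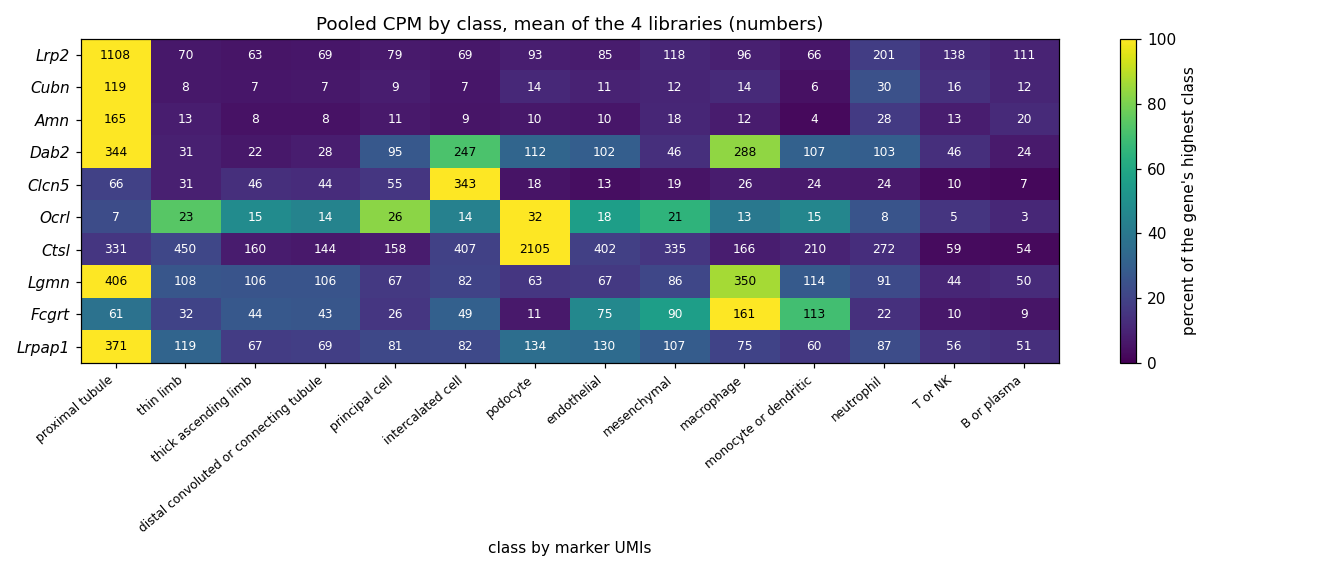
Pooled CPM of each member (rows) in 14 classes (columns), as the mean of the 4 libraries, printed in each cell and coloured by its percent of the gene's highest class. Lrp2, Cubn and Amn peak in PTC alone, Clcn5 in intercalated cells, Ctsl and Ocrl in podocytes and Fcgrt in macrophages.

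The genes most like the receptors over the 14 classes were sought by Pearson's r of log2(CPM + 1) among 6378 genes, class markers left out. For Lrp2 they were Cyp2j5, Acsm2, Akr1c21, Apom and Mfsd4b5 (r of 0.99 each), for Cubn they were Kcnj15, Gm19950, Apom, Acsm2 and Cyp4a10, and for Amn they were Igsf11, Pck1, Slc22a8, Acy3 and Nat8 (r of 0.98 to 0.99 in each set). Between members r was 0.98 for Lrp2 with Cubn, 0.95 for Lrp2 with Amn, 0.71 for Lrp2 with Lrpap1 and 0.01 for Lrp2 with Clcn5. The classes come from the same 4 libraries and share free RNA, so these values describe a pattern.

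Other genes of the uptake pathway were counted in PTC in 7 lists of 76 genes. Over all genes, 9.62% in WT and 12.1% in SP were past 1.5-fold on HFD in either direction. In the clathrin coat and adaptor list, 0 of 11 genes that passed the level filter were past 1.5-fold on HFD in either genotype. The median log2 ratio over this list was 0.02 in WT and -0.01 in SP, so the genes named next do not stand for it. Ap2a2, an adaptor subunit, had 128 CPM on ND and 87.6 on HFD in WT, and 105 and 83.2 in SP. Its log2 ratios were -0.54 and -0.34. Picalm, which helps assemble the coat, was at -0.40 and -0.36. In the early and recycling endosome list, 0 of 10 were past 1.5-fold in WT and 0 of 11 in SP, beside the same shares of all genes. Among the proton pump and chloride exchanger genes that acidify endosomes, 1 of 14 was higher in WT and 2 of 14 in SP, against 5.38% and 6.52% of all genes. Atp6v1g1, a pump subunit, was the one shared by both genotypes, at 0.60 in WT and 0.67 in SP.

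Of the lysosomal hydrolases and membrane proteins, 0 of 12 were past 1.5-fold in WT, against 9.62% of all genes in either direction. In SP, 1 of 12 was higher, against 6.52% of all genes. This was Psap, the precursor of the saposins, with 541 CPM on ND and 655 on HFD in WT, and 393 and 765 in SP, log2 ratios of 0.28 and 0.96. The inhibitors of cathepsins and legumain that passed the filter, Cst3 and Cstb, were higher on HFD without passing 1.5-fold, at 0.49 and 0.57 in WT and 0.23 and 0.41 in SP. Of the LDL receptor family other than Lrp2, 3 of 10 genes passed the filter. None of them was past 1.5-fold on HFD, against 9.62% of all genes in WT and 12.1% in SP. The median log2 ratio over the listed genes of this family was 0.05 in WT and -0.25 in SP. Lrp6, a receptor of Wnt signals, was at -0.55 (-0.66 to -0.45) in WT and -0.39 (-0.53 to -0.26) in SP. B2m, the light chain that Fcgrt needs to leave the endoplasmic reticulum, had 148 CPM on ND and 243 on HFD in WT, and 135 and 244 in SP. Its log2 ratio was 0.72 (0.65 to 0.78) for WT and 0.85 (0.76 to 0.94) for SP, past 1.5-fold in each. B2m is also the light chain of MHC class I molecules. No gene of the 7 lists that passed the level filter was past 1.5-fold between SP and WT on either diet. Over all genes the shares were 3.47% on ND and 2.27% on HFD.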

How the data were processed

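Whole kidneys were dissociated and single-cell 3′ libraries were made with 10x Genomics reagents. The deposited values are whole-number UMI counts, unnormalized, for each gene in each barcode, and the authors obtained them with Cell Ranger. The submitters' processing notes name Cell Ranger 2.1.1 and mm10, while the matrix header names 6.1.2. The study predicted and removed doublets and plots a free-RNA correction in its own later steps, and neither is stated for the deposited counts. Library totals were 90728590 to 115117649 UMIs, and every barcode had at least 500.

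Members and gene lists were chosen with earlier results of these data known. Barcodes with 200 to 5000 genes and under 50% mitochondrial UMIs were kept. A class was assigned where the Poisson log-likelihood gain of its marker UMIs over their mean share was at least 8 and at least 2 times that of the next class. Barcodes that met no class (1676 to 3747 per library) and those with proximal tubule markers and those of another class (9 to 84) were left out. WT-HFD had the most of both kinds. There, 38.6% of the kept barcodes met no class, against 24.8% to 33.2% elsewhere. The second kind numbered 84 there and 9 to 31 elsewhere. Whether the injured cells that the paper describes were among those left out was not tested. From 65 to 256 PTC per library lay near these limits, which were set after the data were seen. No doublet caller was run apart from an alternative. Early and late PTC needed at least 3 segment marker UMIs and a ratio of 2.

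Counts were summed per library and class and divided by all UMIs of that sum (CPM). Ratios have exact conditional binomial 95% intervals, levels exact Poisson intervals and shares exact binomial intervals. For a count of 0 a floor of 3 UMIs was also set, which is below the upper limit of the exact Poisson interval. In PTC of SP-HFD, where Dpys had 0 UMIs, the floor was 0.358 CPM and that limit 0.440 CPM. The fold used was 1.5, among genes of at least 20 CPM outside the mitochondrial genome. Shares at 1000 UMIs were computed without random draws. All members were named. Of each pathway list, up to 3 genes with the largest ratio and at least 50 CPM could be named, and for Lrp2, Cubn and Amn the 5 genes most alike over classes. Ratios and the class rule were run on Poisson counts drawn from the pooled profiles of the classes. These draws held no doublets, no added free RNA and no variation between mice. They check the computation only and cannot show how well the rule or the intervals serve real barcodes. The tools were scipy 1.17.1 and numpy 2.4.6 for the intervals, pandas 2.3.3 for the tables and matplotlib 3.10.9 for the figures, under Python 3.11.15. The counting's strand setting was not given in the sources used here, and Cubn, Dab2, Ctsl and Fcgrt have antisense neighbours. Promoters came from RefSeq.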

Additional observations from a re-analysis of the deposited data

Results flagged for a closer look

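In pooled PTC, Amn and Fcgrt had ratios of HFD to ND of opposite sign in the 2 genotypes. Amn in PTC was at -0.23 on the log2 scale in WT and at 0.12 in SP. Fcgrt in PTC was at -0.13 in WT and at 0.30 in SP. With 1 library per group the difference between genotypes was not tested. For Amn the ratio in WT ran from -0.44 to -0.15 over the 18 alternatives, and in SP it turned to -0.30 (-0.57 to -0.04) in PTC between the early and late segments. Leaving mitochondrial UMIs out of the total moved every ratio of HFD to ND in SP by -0.0945. This is most of the 0.12 of Amn, so the size of its positive ratio in SP depends on the total used. For Fcgrt the ratio in WT ran from -0.47 to -0.02 over these alternatives. Its lower level on HFD in WT was mostly in late PTC, with 64.6 CPM on ND and 46.7 on HFD. In WT it had 66.2 and 63.2 CPM in early PTC, and 60.1 and 59.2 in the PTC between. For Fcgrt the ratio in SP turned to -0.24 in late PTC alone, with an interval that held 0 (-0.67 to 0.17). Late PTC thus did not show opposite signs for Fcgrt.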

How the results depend on the processing

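No paired analysis was possible because no result comes from a test across samples: each group had 1 library. Of 14 alternatives and 4 more added after the data were seen, all left Lrp2 and Cubn lower on HFD in both genotypes: Lrp2 at -0.98 to -0.59 in WT and -0.58 to -0.25 in SP, Cubn at -0.97 to -0.62 in WT and -0.80 to -0.33 in SP (log2). The median ratio of HFD to ND over the members in WT moved to -0.0913 in early and -0.27 in late PTC, and to -0.11 in PTC with under 0.05% thick limb marker UMIs. In SP it moved to 0.12 with a limit of 30% mitochondrial UMIs, -0.0638 without mitochondrial UMIs in the total, 0.14 in early, -0.17 in late and -0.16 in the PTC between. For SP to WT on ND it moved to -0.18 with no mitochondrial limit, -0.15 in early PTC and -0.0164 in PTC of 20 to 40% mitochondrial UMIs, and reversed to 0.0202 without mitochondrial UMIs in the total. For SP to WT on HFD it moved to 0.22 with a limit of 30%, 0.00889 in PTC with few thick limb UMIs and 0.20 in PTC of 5000 to 20000 UMIs. For PTC to other classes, 2.07 as reported, it moved to 1.97 with no margin, 2.25 without mitochondrial UMIs, 2.71 with median-ratio scaling, 1.92 as a mean over barcodes, 2.31 with an ambient subtraction of 10%, 2.16 without barcodes scored as doublets, 1.76 in late PTC and 1.91 in the PTC between. Leaving out mitochondrial UMIs and median-ratio scaling by construction shifted every gene's ratio of PTC to other classes by 0.18 and 0.64. The former also shifted SP to WT on ND by 0.11 and HFD to ND in SP by -0.0945. The cause of the other moves was not tested.

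A reversal was counted only where the reported counting interval left out 0. Of the 11 member ratios (of 50) whose interval held 0, 10 also changed sign under some alternative, such as Cubn between genotypes (-0.13 to 0.20 on ND, -0.0995 to 0.41 on HFD) and Dab2 on HFD in SP (-0.45 to 0.0718). The reversals were as follows. In the PTC between the segments, Amn on HFD in SP was at -0.30, Ctsl in SP at -0.0882, and SP to WT on HFD was -0.12 for Lgmn. In late PTC, Lgmn on HFD in WT was at -0.0274, Ctsl in SP at -0.00396 and Fcgrt in SP at -0.24. There, SP to WT on HFD was -0.18 (-0.59 to 0.22) for Fcgrt and 0.0640 (-0.05 to 0.18) for Lrpap1. The intervals of all these late PTC values held 0. For SP to WT on ND, Dab2 was at -0.00578 with no mitochondrial limit and -0.0390 in early PTC, Ctsl and Lgmn were at 0.0172 and 0.0232 without mitochondrial UMIs, and Lgmn was at 0.0268 in PTC of 20 to 40% mitochondrial UMIs. For SP to WT on HFD, Lgmn was at -0.000912 in PTC with few thick limb UMIs and Lrpap1 at 0.0286 with a limit of 30%. For PTC to other classes, Clcn5 was at 0.0589 without mitochondrial UMIs, 0.52 with median-ratio scaling and 0.32 as a mean over barcodes, and Ctsl at 0.46 with median-ratio scaling. Of the values of single members under these alternatives, 654 stayed within the spread that their counting interval allows, 227 moved further and 19 reversed.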
